A study of Mus musculus with 2 samples.

Results

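Wnt signalling at gastrulation is tuned outside the cell by secreted inhibitors and at the membrane by receptors and their stabilisers. This account follows 10 genes of that layer through mouse embryos at embryonic day 7.0. They were chosen by symbol, as 10 of the 32285 genes measured, and comprise the secreted inhibitors Dkk1, Sfrp1, Sfrp2 and Sfrp5, the Frizzled receptors Fzd5 and Fzd8, the R-spondin Rspo3 with the R-spondin receptors Lgr4 and Lgr5, and Axin2, an intracellular brake that is itself a Wnt target. With them came the 186 of 229480 accessibility peaks that lie within 50 kb of their transcription starts.

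Wnt ligands bind Frizzled proteins together with the co-receptors Lrp5 and Lrp6, which stabilises beta-catenin and lets it act with TCF/LEF factors on target genes. Dkk1 blocks the Lrp co-receptors, Sfrp proteins bind Wnts through a Frizzled-like domain, and R-spondins acting through Lgr4 and Lgr5 keep Frizzled proteins at the cell surface. In the mouse gastrula, Wnt signalling is needed to form the primitive streak, and the anterior visceral endoderm, a signalling tissue on the opposite side of the embryo, is known for secreting Wnt and Nodal antagonists such as Dkk1 and Cer1.

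Pooled embryos at E7.0 were taken apart to nuclei, in which RNA and open chromatin were read together, as 1 library per assay. Embryos could not be told apart, the labels name no treatment, and no value here has a replicate check or a test. The labels conflicted: title, age and protocol named E7.0 embryos, while tissue and cell type entries named gut regions and goblet cells and the strain entry read RedMUC298trTg. Over all barcodes the goblet-cell genes Muc2 and Tff3 had 21 and 11 UMIs (unique RNA molecules counted). In the nuclei kept, 9 goblet and intestinal genes made up 30.04 of every 1000000 UMIs (CPM), most of them Vil1, whereas 11 visceral endoderm genes made up 4104 CPM, so the nuclei are described as embryonic.

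After filtering, 12796 nuclei of 15341 barcodes remained, with medians of 10471 UMIs and 17350 peak counts. They fell into 20 clusters made from RNA without the members or other listed Wnt genes. Of these, 12 clusters took names from marker genes, in 8 classes holding 74.1% of nuclei, and 8 stayed unnamed. Levels below are summed UMIs of a population in CPM. A population was called higher or lower at 2-fold or more against all other kept nuclei, and ranked only if it held at least 50 nuclei with a median depth no lower than the overall median divided by 3, which left 13 populations. The 95% intervals given beside values reflect counting error alone. The median gene shifted by -0.19 to 0.04 (log2) between populations, by more than 0.1 in 6 of them. Taking that shift off changed 3 calls: Sfrp1 in the node-like class and Fzd5 in cluster 10 became higher (1.08 and 1.09 on the log2 scale), and Sfrp1 in embryonic mesoderm-like nuclei was no longer lower (-0.98). The members' spans run from 3346 to 137467 bp, so levels are compared within a gene only. Because each population is a pool of nuclei, a population's level does not separate fewer expressing nuclei from less RNA per nucleus, and shares of nuclei with a UMI are given beside it.

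A pair of unnamed clusters, 8 and 10, held most UMIs of Dkk1, Sfrp1, Sfrp5, Fzd5 and Fzd8, but few of Sfrp2 (24 and 36 of 1142). Cluster 8 (764 nuclei) scored highest for anterior visceral endoderm markers, a mean log2 ratio of 1.80, with the list of anterior streak and definitive endoderm close behind at 1.72. It also held visceral endoderm RNA at 9767 CPM, against 18044 CPM in the visceral endoderm-like class and 893.8 CPM in epiblast-like nuclei. Cluster 10 (584 nuclei) scored 2.51 and 2.07 on the same lists, but its visceral endoderm RNA was 767.6 CPM, below the epiblast-like level. Both clusters expressed Lhx1, Gsc and Hhex, transcription factors of anterior endoderm and the anterior streak: Lhx1 stood at 529.5 CPM in cluster 8 and 1334 CPM in cluster 10, against 61.2 CPM in visceral endoderm-like nuclei. The naming rule did not decide between these lists in either cluster, so both clusters are called by number. The visceral endoderm list did set them apart, with a mean log2 ratio of 1.49 in cluster 8 and -2.25 in cluster 10.

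The start-proximal sequence is shown for 4 members, because promoter accessibility is compared with RNA below. Start-proximal sequence from RefSeq (GRCm38.p6) was at hand for 6 members: Dkk1, Sfrp2, Sfrp5, Fzd5, Lgr4 and Axin2. None was at hand for Sfrp1, Lgr5 and Rspo3, which were not searched. In the 6, the 250 bases before each start were searched on both strands for the TCF/LEF words CTTTGAT and CTTTGAA and for the forkhead word TGTTTAC. Among these 6, only Dkk1 held any of the words, CTTTGAA, on its own strand from 117 to 111 bases before the RefSeq start. Among 32851 such windows of all genes, 7.48% held a TCF/LEF word and 3.17% the forkhead word. The start of Dkk1 in the files lies 169 bp upstream of the RefSeq start, so the word falls between both starts, and only 27 bases around it are shown, with the word in capitals (chr19:30549597-30549623, minus strand). The other sequences are the 250 bases before the start, with no word to capitalise: Sfrp2 at chr3:83766071-83766320 (plus strand), Sfrp5 at chr19:42202253-42202502 (minus strand) and Axin2 at chr11:108920099-108920348 (plus strand). Their G and C content over 250 bases was 60.8% for Dkk1, 63.6% for Sfrp2, 59.6% for Sfrp5 and 69.2% for Axin2.
Dkk1: cctcccaaagCTTTGAAatcccatccc
Sfrp2: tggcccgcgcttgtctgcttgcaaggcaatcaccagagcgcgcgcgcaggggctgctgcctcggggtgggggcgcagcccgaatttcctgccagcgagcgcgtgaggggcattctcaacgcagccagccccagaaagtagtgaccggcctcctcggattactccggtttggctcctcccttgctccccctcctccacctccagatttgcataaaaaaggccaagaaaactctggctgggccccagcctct
Sfrp5: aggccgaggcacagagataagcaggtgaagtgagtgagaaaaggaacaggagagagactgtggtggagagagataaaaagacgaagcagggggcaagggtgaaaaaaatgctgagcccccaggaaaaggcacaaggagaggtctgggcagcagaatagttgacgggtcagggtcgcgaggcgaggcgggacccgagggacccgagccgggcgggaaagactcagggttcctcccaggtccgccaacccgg
Axin2: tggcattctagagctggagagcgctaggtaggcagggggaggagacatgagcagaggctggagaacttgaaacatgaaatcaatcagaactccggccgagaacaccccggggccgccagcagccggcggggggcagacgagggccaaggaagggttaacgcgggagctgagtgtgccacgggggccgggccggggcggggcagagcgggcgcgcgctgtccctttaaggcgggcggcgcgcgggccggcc

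Dkk1 RNA was highest in cluster 8, at 274 CPM (265 to 284, 3168 UMIs), and next in cluster 10 at 101 CPM (93.3 to 109). No other ranked population passed 33.5 CPM, the level of cluster 15. Haemato-endothelial progenitor-like nuclei stood at 32.4 CPM, embryonic mesoderm-like at 32.0, visceral endoderm-like at 17.0, epiblast-like at 9.58 and cluster 18 at 7.98. Cluster 8 thus exceeded all other nuclei 12.6-fold (11.9 to 13.2) and cluster 10 directly by 2.72-fold (2.49 to 2.96). From cluster 15 downward the intervals of each pair of neighbours overlapped. The signal was uneven between nuclei: 1 nucleus of cluster 8 held 113 Dkk1 UMIs, and the 10 highest nuclei held 18.6% of the cluster's total.

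Sfrp1, a secreted Frizzled-related inhibitor, followed the same order at the top. It reached 379 CPM (368 to 390) in cluster 8, 234 CPM (222 to 246) in cluster 10 and 123 CPM (106 to 141) in node and ciliated axial-like nuclei, whose intervals did not overlap. Cluster 14 had 56.8 CPM, epiblast-like 40.4 and embryonic mesoderm-like 32.7, and 5 populations lay between 9.16 CPM (extraembryonic ectoderm-like) and 10.98 CPM (visceral endoderm-like). Cluster 8 exceeded visceral endoderm-like nuclei 34.5-fold (29.95 to 39.9), although both carried visceral endoderm markers. Unlike Dkk1, the 10 highest nuclei of cluster 8 held only 6.17% of its Sfrp1 UMIs.

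Sfrp5, of the same family, was concentrated in cluster 8. That cluster held 1234 of its 1625 UMIs (75.9%), at 107 CPM (101 to 113), and the next population, cluster 14, had 7.53 CPM (3.76 to 13.5) from 11 UMIs. Cluster 10 had 6.76 CPM, visceral endoderm-like nuclei 4.15 and epiblast-like nuclei 1.96. The ratio of cluster 8 to all other nuclei was 36.7 (32.7 to 41.2), and its ratio to cluster 10 was 15.8 (11.7 to 21.9). Sfrp5 was therefore the member that separated both anterior-scoring clusters most in favour of cluster 8. Below cluster 8 the intervals of all neighbours overlapped.

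Sfrp2 ran the other way. It was a low-level gene, with 1142 UMIs in all, and its highest levels were 16.5 CPM (15.04 to 18.03) in epiblast-like nuclei, 16.4 CPM (10.5 to 24.5) in cluster 14 and 13.02 CPM (11.6 to 14.6) in primitive streak-like nuclei. Cluster 14 overlapped both of the others, while the epiblast-like and primitive streak-like intervals did not overlap. Cluster 8 had 2.08 CPM (1.33 to 3.09), visceral endoderm-like nuclei 1.75 and cluster 15 0.965, the last from 3 UMIs. Sfrp2 was the only inhibitor of the 4 called lower in cluster 8, at 0.249 of the level elsewhere (0.159 to 0.373). Epiblast-like nuclei were 2.90-fold above all others (2.58 to 3.27).

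Fzd5, a Frizzled receptor, reached 209 CPM (201 to 217) in cluster 8, 53.3 CPM (47.8 to 59.3) in cluster 10 and 28.5 CPM (20.8 to 38.0) in node and ciliated axial-like nuclei. The remaining ranked populations ranged from 5.62 CPM in cluster 11 to 20.5 CPM in cluster 14, with epiblast-like nuclei at 14.5 and visceral endoderm-like at 9.23. Cluster 8 was 17.03-fold above all other nuclei (15.99 to 18.1) and 3.92-fold above cluster 10 (3.49 to 4.40). Cluster 10 itself lay just under the 2-fold line. From the node-like class downward each neighbour overlapped the next.

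Fzd8, a second Frizzled, did not separate the pair of clusters in the way Fzd5 did. It stood at 95.0 CPM (87.6 to 103) in cluster 10 and 85.1 CPM (79.9 to 90.6) in cluster 8, a direct ratio of 1.12 (1.01 to 1.24). Node and ciliated axial-like nuclei had 56.3 CPM (45.4 to 69.2), cluster 14 29.4, and all others lay between 3.16 (cluster 11) and 8.98 CPM (cluster 18). Against all other nuclei, Fzd8 was 7.16-fold higher in cluster 10 (6.52 to 7.85), 7.77-fold in cluster 8 (7.16 to 8.43) and 3.44-fold in the node-like class (2.76 to 4.24). It was lower by 2-fold or more in 8 of the 13 ranked populations, among them visceral endoderm-like nuclei at 3.66 CPM.

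Lgr5, a receptor for R-spondins best known as a marker of adult intestinal stem cells, was highest in the node and ciliated axial-like class, at 427 CPM (395 to 460, 689 UMIs in 145 nuclei). Cluster 10 followed at 243 CPM (231 to 255) and haemato-endothelial progenitor-like nuclei at 98.9 CPM (91.5 to 107). Primitive streak-like nuclei had 31.9 CPM, cluster 14 29.4, cluster 8 29.4, epiblast-like 5.22 and extraembryonic ectoderm-like 2.01. The top 3 populations were 15.5-fold (14.2 to 16.8), 10.8-fold (10.2 to 11.5) and 3.43-fold (3.16 to 3.73) above all other nuclei, and their intervals did not overlap. Cluster 10 exceeded cluster 8 by 8.27-fold (7.35 to 9.33), the reverse of Sfrp5 and Dkk1. In the node-like class 10 nuclei held 27.1% of the Lgr5 UMIs. The transcript A930009A15Rik lies within Lgr5, and since no source used here states that strand was used in counting, part of the Lgr5 count is uncertain: A930009A15Rik itself stood at 27.2 CPM in the node-like class, 17.0 in cluster 10 and 11.5 in haemato-endothelial progenitor-like nuclei.

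Rspo3, a secreted R-spondin, had its highest level in haemato-endothelial progenitor-like nuclei, 652 CPM (633 to 671), a class that also scored 1.52 for extraembryonic mesoderm markers. Embryonic mesoderm-like nuclei had 288 CPM (280 to 297), node and ciliated axial-like nuclei 245 (221 to 270) and primitive streak-like nuclei 142 (137 to 146). Clusters 10 and 8 were alike within their intervals at 102 and 100 CPM. Epiblast-like nuclei had 34.9 CPM, visceral endoderm-like 28.1 and extraembryonic ectoderm-like 6.02 (4.88 to 7.35), 108-fold (88.4 to 134) below the highest population. As averages over each class, Rspo3 levels thus differed across the mesodermal classes and the streak. Parts of these classes differed too, as given below. Rspo3 and Lgr5 were both called higher in 2 populations, the node-like and haemato-endothelial progenitor-like classes. In embryonic mesoderm-like nuclei Lgr5 was low, at 9.39 CPM (7.99 to 10.96). Cluster 10 also held RNA of both, Lgr5 at 243 CPM and Rspo3, not raised, at 102 CPM. These calls leave out the receptor Lgr4, which had RNA in every ranked population. Unthinned, Lgr4 was seen in 49.9% of embryonic mesoderm-like nuclei.

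Lgr4, the other R-spondin receptor measured, was the flattest member. Its levels ran from 60.6 CPM (57.1 to 64.3) in visceral endoderm-like nuclei to 153 CPM (144 to 163) in cluster 10 and 145 CPM (141 to 150) in epiblast-like nuclei, a 2.53-fold range (2.32 to 2.76). No ranked population was 2-fold above or below all other nuclei. The highest, cluster 10, was 1.54-fold higher (1.44 to 1.64) and did not separate from epiblast-like nuclei, at a direct ratio of 1.06 (0.985 to 1.13). The parietal endoderm-like class, with only 32 nuclei and so unranked, had 240 CPM (194 to 293) from 94 UMIs, and no Lgr5 UMI, which allows up to 7.65 CPM at 3 counts (the exact interval ends at 9.40).

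Axin2, which restrains beta-catenin and is widely read as a Wnt target, was highest along the streak and mesoderm. Primitive streak-like nuclei had 81.6 CPM (78.0 to 85.4), haemato-endothelial progenitor-like 79.0 (72.4 to 86.0) and embryonic mesoderm-like 73.7 (69.7 to 77.9). The first and second did not differ beyond their intervals, at a direct ratio of 1.03 (0.938 to 1.14). Only the primitive streak-like class passed 2-fold, at 2.05 (1.95 to 2.17), and its interval spans the line. The call was lost with doublet calls kept (log2 ratio 0.97). With classes from accessibility clusters the log2 ratio was -0.37, but the best match was then an epiblast-like class. That value therefore does not describe streak-like nuclei alone, and Axin2 in the primitive streak-like accessibility cluster is given below. Cluster 10 had 49.2 CPM, visceral endoderm-like nuclei 47.0, cluster 8 27.5, epiblast-like nuclei 20.6 and cluster 11 10.9. Axin2 in cluster 8 was 0.559 of its level in cluster 10 (0.477 to 0.656).

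**Figure D1:**
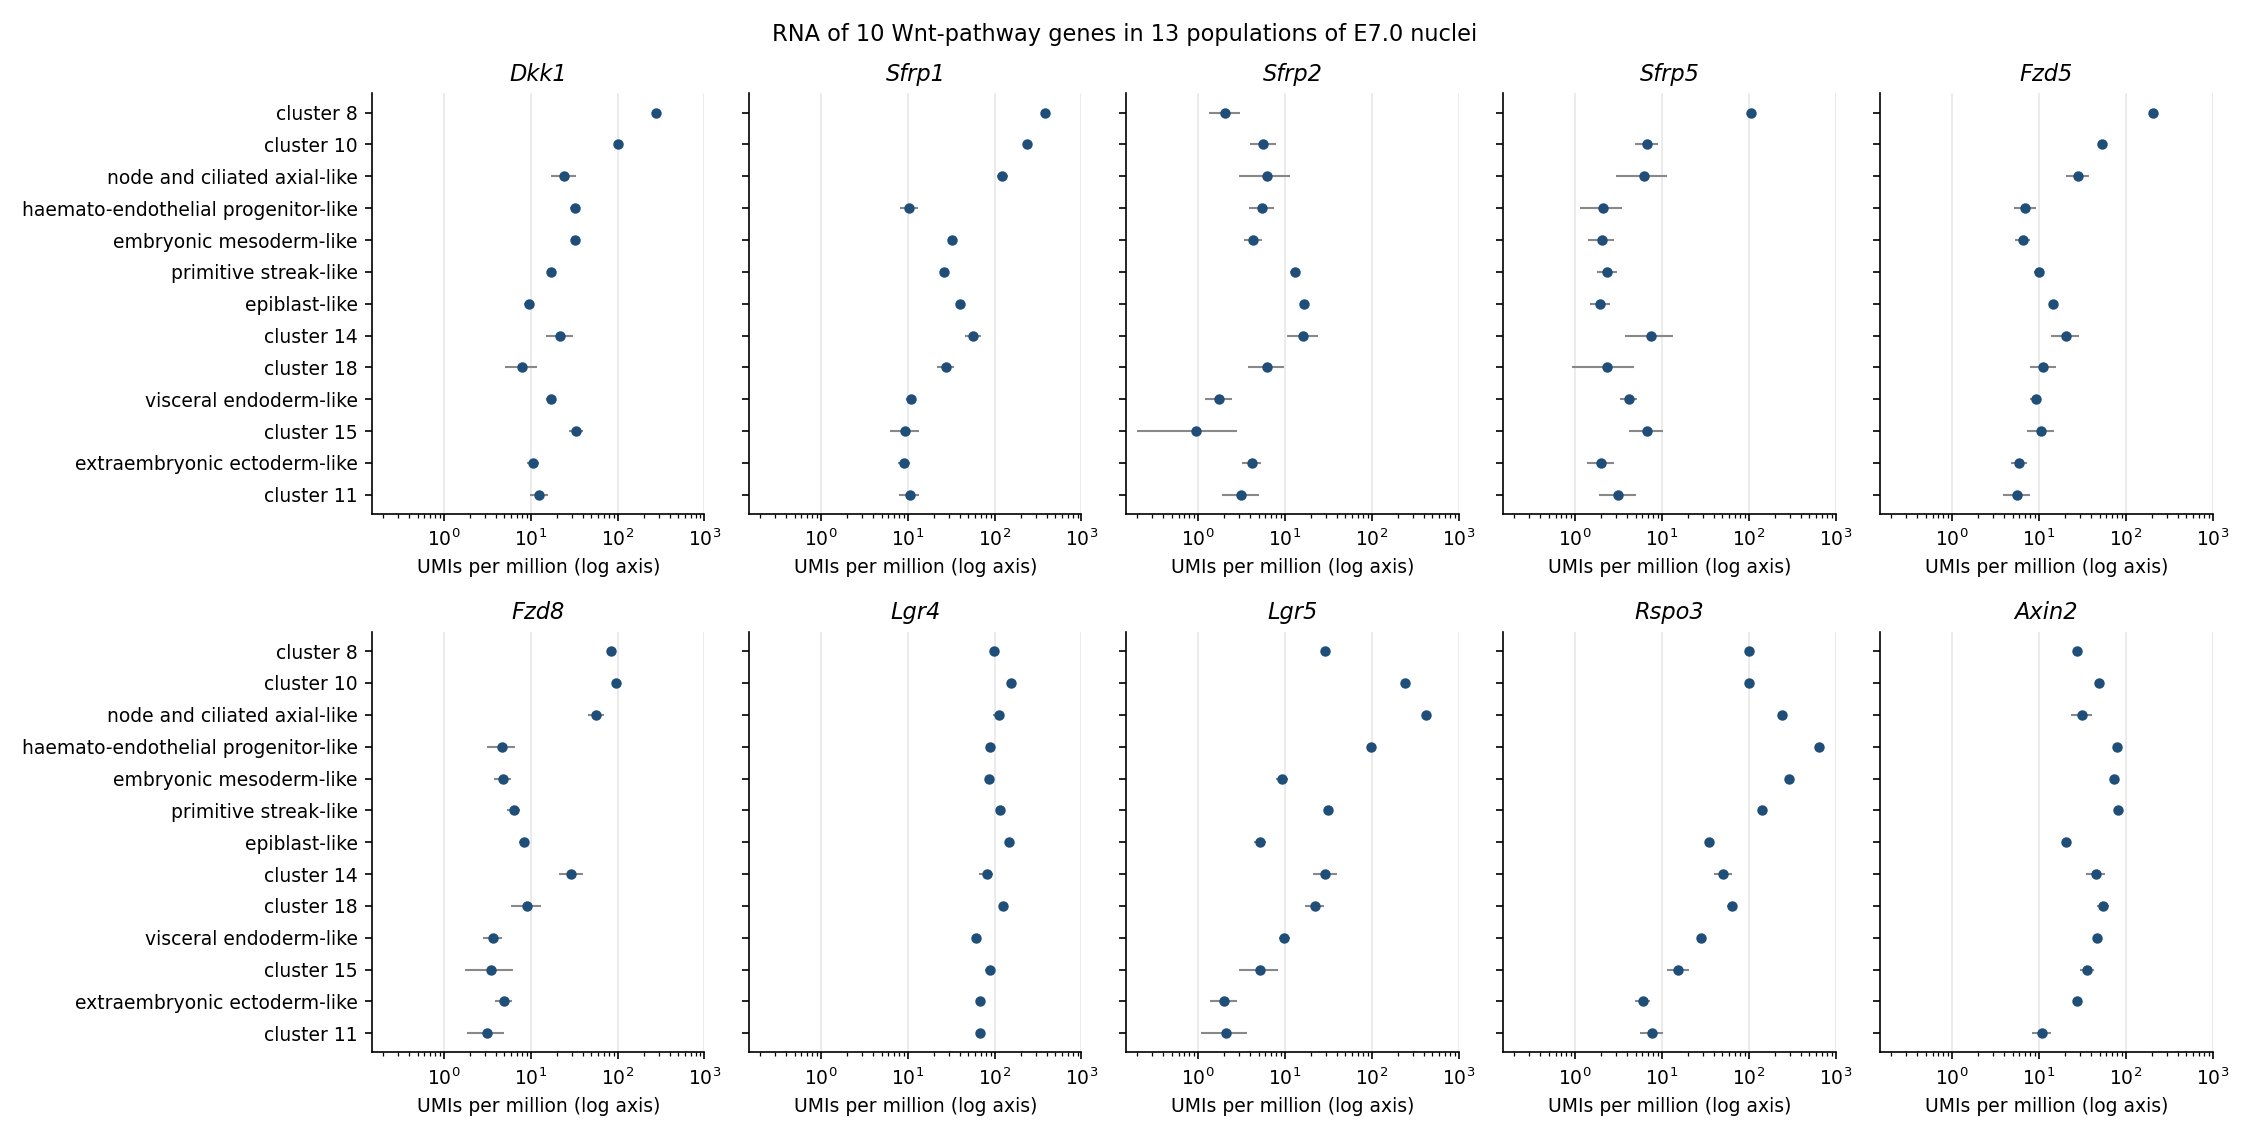
Summed UMIs in CPM (log axis) of each of the 10 genes in the 13 ranked populations, with 95% counting intervals. Dkk1, Sfrp1, Sfrp5 and Fzd5 are highest in cluster 8, Fzd8 in clusters 10 and 8, Lgr5 in the node and ciliated axial-like class, Rspo3 in haemato-endothelial progenitor-like nuclei, Sfrp2 in epiblast-like nuclei and Axin2 in primitive streak-like nuclei, while Lgr4 runs only from 60.6 to 153 CPM.

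Over all alternatives that rebuilt the populations, the lead of Dkk1, Sfrp1, Sfrp5 and Fzd5 stayed with the population matched to cluster 8, and that of the other 6 members moved in at least 1. The lead of Fzd8, Rspo3 and Axin2 passed to a population other than the matched one both with doublet calls kept and with at least 2000 UMIs and 2000 peak counts, that of Lgr4 with the first, that of Sfrp2 with the second, and that of Lgr5 at the finer resolution only, to a part of cluster 10. The RNA log2 ratio in the matched population also moved, from 3.14 to 6.35 for Lgr5, 2.14 to 4.22 for Rspo3, 2.66 to 4.84 for Dkk1 and 3.86 to 5.77 for Sfrp5, each highest against epiblast-like nuclei alone. The members and the other listed Wnt genes were chosen with earlier results of these data known. Their counts beside shares of all genes, here and below, are therefore descriptions only. Counted by population, cluster 8 held 5 of 10 members at 2-fold or more above all other nuclei (Dkk1, Sfrp1, Sfrp5, Fzd5 and Fzd8), where 6.56% of the 14374 genes tested passed the same line. Cluster 10 held 4 (Dkk1, Sfrp1, Fzd8 and Lgr5) against 3.03% of genes, and the node and ciliated axial-like class held 3 (Fzd8, Lgr5 and Rspo3) against 8.48%. The haemato-endothelial progenitor-like class held 2, against 5.06%. Embryonic mesoderm-like nuclei (4.7% of genes), epiblast-like (6.55%), primitive streak-like (3.15%) and cluster 14 (9.34%) held 1 each. The median log2 ratio of the members was 1.44 in cluster 8 and 0.81 in cluster 10, where the median gene stood at -0.18 and -0.09. Dkk1, Sfrp1 and Fzd8 were called higher in both clusters, Sfrp5 and Fzd5 in cluster 8 and not in cluster 10, and Lgr5 in cluster 10 and not in cluster 8.

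Visceral endoderm-like nuclei had 8 of 10 members at 2-fold or more below all other nuclei, where 22.2% of genes were, and the exceptions were Lgr4 and Axin2. Extraembryonic ectoderm-like nuclei had 7 below (22.2% of genes) and cluster 11 had 9 (23.2%). Cluster 11 scored highest for extraembryonic ectoderm (1.31) and next for ectoplacental cone and giant cell (0.82). Among ranked populations it held the most RNA of the ectoplacental cone and giant cell list, at 1902 CPM. Epiblast-like nuclei had 7 below (11.3% of genes), with Sfrp2 higher. Visceral endoderm-like nuclei, extraembryonic ectoderm-like nuclei and cluster 11 had no member 2-fold higher, against 9.61%, 6.16% and 4.74% of genes, nor had cluster 15 (9.39%) or cluster 18 (3.85%). Elsewhere, 6 members were lower in cluster 15 (22.3% of genes), 5 in embryonic mesoderm-like nuclei (13.9%), 5 in primitive streak-like nuclei (9.48%), 4 in haemato-endothelial progenitor-like nuclei (12.4%), 4 in cluster 18 (8.56%), Rspo3 in cluster 14 (16.9%), Sfrp2 in cluster 8 (18.2%) and none in cluster 10 (10.5%) or the node-like class (12%). Since visceral endoderm-like nuclei and cluster 8 shared visceral endoderm markers, they were compared directly: cluster 8 was 16.1-fold higher for Dkk1 (14.3 to 18.1), 25.7-fold for Sfrp5 (20.4 to 32.9), 22.6-fold for Fzd5 (19.4 to 26.6) and 23.3-fold for Fzd8 (18.1 to 30.2), but lower for Axin2, at 0.585 (0.513 to 0.667).

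A finer partition into 34 clusters split both anterior-scoring clusters. Of cluster 8, 65.6% went to a finer cluster of 501 nuclei with 324 CPM of Dkk1, 497 of Sfrp1, 121 of Sfrp5, 295 of Fzd5 and 123 of Fzd8. Another 31.5% joined a visceral endoderm-like finer cluster of 488 nuclei, in which Dkk1 was 99.1 CPM, Sfrp5 42.3 and Fzd5 23.1. Of that finer cluster 241 nuclei came from cluster 8 and 245 from visceral endoderm-like cluster 2, so its levels are averages over both. Of the 5 genes high in cluster 8, the levels of all were thus highest in the first of these finer clusters. Cluster 10 divided nearly evenly by Lgr5: a finer cluster of 290 nuclei had 436 CPM (413 to 460) and one of 264 nuclei had 48.3 CPM, whereas Dkk1 ran the opposite way, at 66.0 and 143 CPM. Both scored highest for anterior visceral endoderm, at 1.99 and 2.57. On the node and ciliated axial list the Lgr5-rich one scored 1.12 and the other -0.06. A finer node and ciliated axial-like cluster of 144 nuclei had 428 CPM of Lgr5 (397 to 462), overlapping the finer cluster at 436 CPM. Another of that name, with 332 nuclei of which 75.6% came from primitive streak-like cluster 5, had 126 CPM (114 to 138). The haemato-endothelial progenitor-like class divided as well, into a finer cluster of the same name with 857 CPM of Rspo3 and 155 of Lgr5 and an extraembryonic mesoderm-like one with 475 and 54.4 CPM. The primitive streak-like class, where Axin2 led, also split: of its cluster 5, 36.9% went to an epiblast-like finer cluster (Axin2 at 45.3 CPM), 29.0% to the larger node-like one (54.2 CPM) and 31.4% to a primitive streak-like one (111 CPM, 102 to 119), the highest Axin2 level among the finer clusters. Of its cluster 3, 36.4% went to another primitive streak-like finer cluster (84.3 CPM), 17.0% to the one at 111 CPM and 27.1% to an unnamed finer cluster that scored highest for primordial germ cell markers, where Axin2 was 91.5 CPM. The finer partition used none of these genes.

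Shares of nuclei with a UMI were compared after thinning every nucleus to 5000 UMIs, which left out shallower nuclei (23 of 764 in cluster 8, 26 of 584 in cluster 10 and 9 of 145 in the node-like class). Extraembryonic ectoderm-like nuclei, with a median of 13279 UMIs before thinning, served as the low reference. Dkk1 was seen in 40.5% of cluster 8 (36.9 to 44.1) and 4.80% of the reference, and Sfrp1 in 66.9% (63.4 to 70.3) and 4.71%. Sfrp5 was seen in 32.8% (29.4 to 36.3) and 1.04%, and Fzd5 in 43.7% (40.1 to 47.4) and 2.64%. Unthinned, the 4 shares in cluster 8 (median 14146 UMIs) were 56.4%, 83.6%, 54.3% and 59.3%. So many cluster 8 nuclei carried no Sfrp5 or Dkk1 UMI at this depth, while most carried Sfrp1.

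Lgr5 was seen in 69.9% of thinned node-like nuclei (61.4 to 77.4), 42.1% of cluster 10 (38.0 to 46.3), 20.5% of haemato-endothelial progenitor-like nuclei (17.3 to 24.0) and 0.847% of the reference. Rspo3 was seen in 76.6% of haemato-endothelial progenitor-like nuclei (72.9 to 80.0), 60.8% of embryonic mesoderm-like nuclei (58.2 to 63.3) and 2.73% of the reference. Fzd8 was seen in 36.0% of cluster 10 (32.0 to 40.2) and 23.8% of cluster 8 (20.7 to 27.0), intervals that did not overlap although the CPM levels were close. Lgr4 was broad, from 24.3% to 47.1% of thinned nuclei over the ranked populations. Unthinned, Lgr5 was seen in 77.9% of the node-like class (median 9963 UMIs), Rspo3 in 83.7% of haemato-endothelial progenitor-like nuclei (median 10206) and Fzd8 in 54.3% of cluster 10 (median 10023). Sfrp2 remained sparse everywhere, at 7.37% of epiblast-like nuclei (6.38 to 8.45) and 1.79% of the reference.

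**Figure D2:**
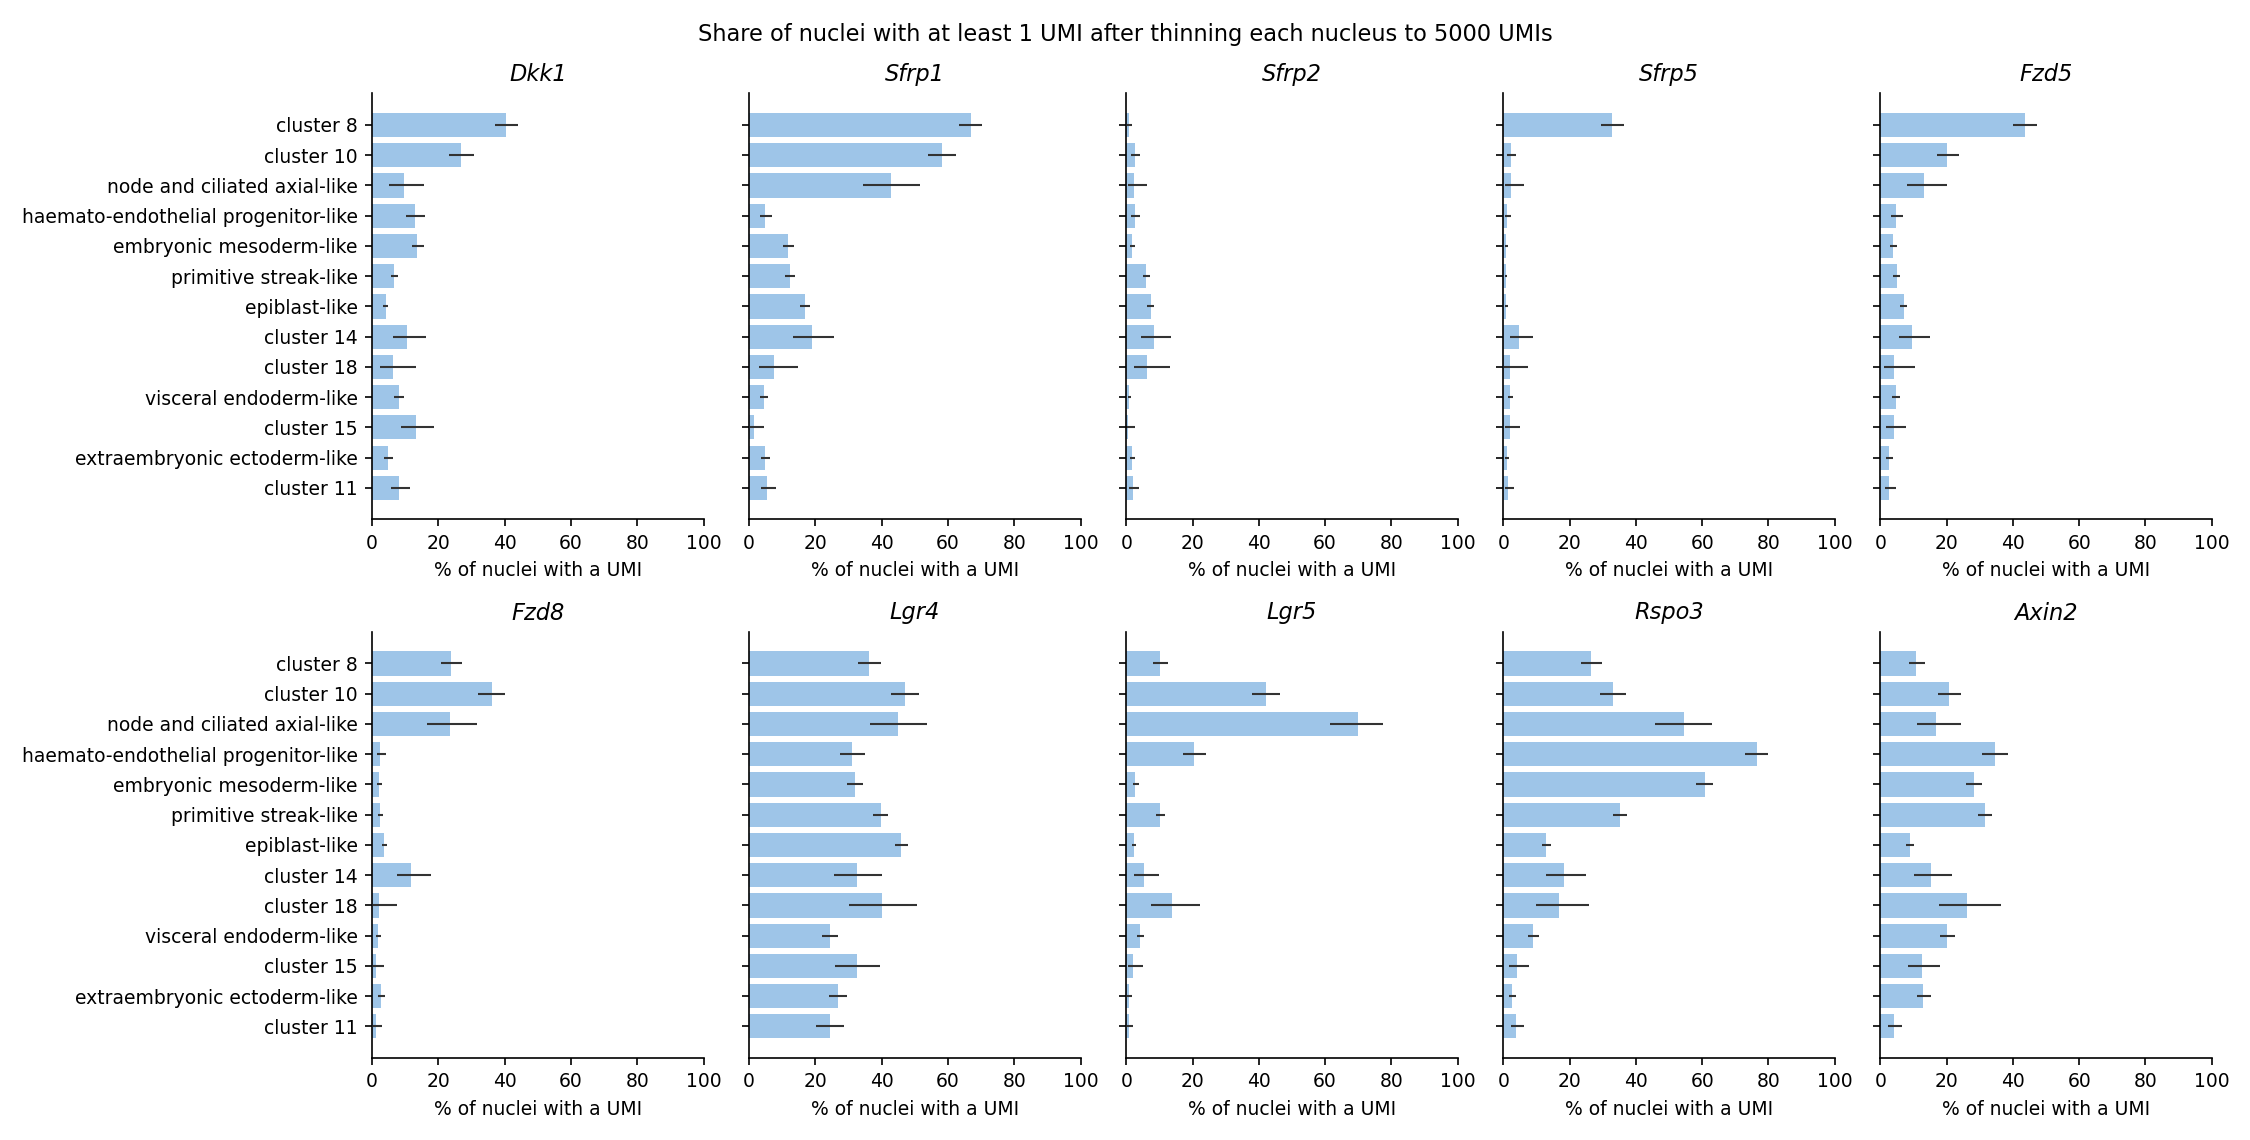
Percent of nuclei with at least 1 UMI of each gene after thinning to 5000 UMIs, in the 13 ranked populations, with exact 95% binomial intervals. The bars for Sfrp5 are tall in cluster 8 only (32.8%), those for Lgr5 in the node-like class (69.9%) and cluster 10 (42.1%), and Lgr4 is seen in all populations.

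Clusters drawn from accessibility alone, without the 186 member peaks, gave a second view of the RNA. Accessibility cluster 5 held 94.4% of cluster 8 and had 215 CPM of Dkk1 (208 to 223), 297 of Sfrp1, 84.5 of Sfrp5 and 164 of Fzd5, the highest of the 16 accessibility clusters for each. Accessibility cluster 7 took 86.3% of cluster 10 and 80.0% of the node-like class, and it had the highest Lgr5 (241 CPM, 231 to 252) and Fzd8 (73.3 CPM). For Fzd8, cluster 5 was close at 67.0 CPM, with overlapping intervals. Both accessibility clusters were mixtures by RNA class: cluster 5 held 721 nuclei of cluster 8 with 242 visceral endoderm-like, and cluster 7 held, beside its cluster 10 nuclei, 175 primitive streak-like and 116 node-like, so their levels are averages over these. Rspo3 was highest in accessibility cluster 14 (656 CPM, 624 to 689), where 160 of 194 nuclei were primitive streak-like and 14 haemato-endothelial progenitor-like by RNA. Accessibility cluster 8, which held 93.5% of haemato-endothelial progenitor-like nuclei, followed at 609 CPM (592 to 627), with an overlapping interval. Axin2 was highest in cluster 14 (99.4 CPM) and in primitive streak-like cluster 12 (96.0 CPM).

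Across the 16 accessibility clusters, Sfrp1 and Fzd8 had the closest profiles of any member pair (Pearson r = 0.93 of log2(CPM + 1)), followed by Fzd5 with Fzd8 (0.91), Sfrp1 with Fzd5 (0.90) and Dkk1 with Sfrp5 (0.87). Rspo3 and Axin2 stood at 0.71. These values describe clusters from 1 library that share depth and composition. Outside the members and the wider lists, the gene most like each member over the same clusters, among 12253 genes, was Slc35g2 for Dkk1 (0.86), Lbh for Sfrp1 (0.91), Stmn2 for Sfrp2 (0.98), Akr1c19 for Sfrp5 (0.89), F5 for Fzd5 (0.92), Lefty1 for Fzd8 (0.93), Thnsl1 for Lgr4 (0.90), Tll1 for Lgr5 (0.89), Tpd52l1 for Rspo3 (0.93) and Hunk for Axin2 (0.88). Lefty1, a Nodal antagonist, is one of the anterior visceral endoderm markers used for naming, and F5 encodes coagulation factor V.

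Accessibility at the promoters varied far less than RNA. Each member had 1 or 2 peaks overlapping its promoter, taken as 1000 bp before and 100 bp after a start. In the population with the highest RNA, summed promoter counts were 1.44-fold above all other nuclei for Dkk1 (1.27 to 1.64), 1.48 for Sfrp1 (1.27 to 1.72), 1.51 for Sfrp2 (1.37 to 1.66), 1.37 for Fzd5 (1.28 to 1.47) and 1.78 for Fzd8 (1.59 to 1.99). They were 1.24 for Rspo3 (0.993 to 1.53), 1.28 for Lgr5 (0.915 to 1.75), 1.18 for Axin2 (1.12 to 1.25), 1.03 for Sfrp5 (0.861 to 1.23) and 1.002 for Lgr4 (0.885 to 1.13). None reached 2-fold and 2 reached 1.5-fold. The share of all genes whose promoters pass these lines was not measured, so these counts do not set the members apart from other genes. Sfrp5, with a 36.7-fold RNA ratio, had a promoter difference within counting error. The intervals of Rspo3, Lgr5 and Lgr4 also held 1.

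Promoter and RNA orders disagreed for several members. The Dkk1 promoter peaks were highest in haemato-endothelial progenitor-like nuclei (46.6 CPM of peak counts, a ratio of 1.93, 1.70 to 2.19) and embryonic mesoderm-like nuclei (37.7), above cluster 8 (35.4), although their Dkk1 RNA was 32.4 and 32.0 CPM against 274 in cluster 8. The Sfrp5 promoter was likewise highest in haemato-endothelial progenitor-like nuclei (25.02 CPM of peak counts), where Sfrp5 RNA was 2.09 CPM. The extraembryonic ectoderm-like class and cluster 11 had the lowest promoter levels of Dkk1, Sfrp5, Lgr5 and Rspo3: the Dkk1 promoter ratio was 0.176 in cluster 11 (0.102 to 0.282), that of Lgr5 0.289 there (0.185 to 0.432) and that of Rspo3 0.233 in extraembryonic ectoderm-like nuclei (0.161 to 0.327). The promoters of Fzd5, Axin2 and Lgr4 varied least, with a range between populations of 2.01-fold, 1.54-fold and 1.48-fold.

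The 19 RNA clusters of at least 50 nuclei include clusters 6 and 16, which were too shallow to be ranked (medians of 1749 and 1693 UMIs). Over these 19 clusters, the Pearson coefficient between promoter accessibility and RNA was 0.81 for Fzd8, 0.77 for Axin2, 0.67 for Sfrp2 and 0.66 for Rspo3. It was 0.42 for Dkk1, 0.39 for Fzd5, 0.36 for Lgr5, 0.29 for Sfrp1, 0.05 for Sfrp5 and -0.21 for Lgr4. Summed distal peaks gave higher coefficients for Sfrp1 (0.79), Sfrp2 (0.86), Sfrp5 (0.67) and Lgr5 (0.65), and lower ones for Fzd8 (0.66), Axin2 (0.57) and Fzd5 (0.16). They were 0.45 for Dkk1, 0.65 for Rspo3 and -0.08 for Lgr4. For Dkk1 and Rspo3 the order depended on the measure: Spearman coefficients were 0.61 for the promoter and 0.34 for distal peaks of Dkk1, and 0.52 and 0.61 for those of Rspo3. Over the 16 accessibility clusters, Pearson coefficients kept the order for Sfrp1, Sfrp2, Sfrp5, Lgr5, Fzd8 and Fzd5. For Axin2 they were 0.690 for the promoter and 0.688 for distal peaks. There the Spearman order turned for Fzd8 (0.59 and 0.81), Axin2 (0.709 and 0.724) and Dkk1 (0.54 and 0.68). All clusters came from the same library, and the coefficients are descriptions.

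**Figure D3:**
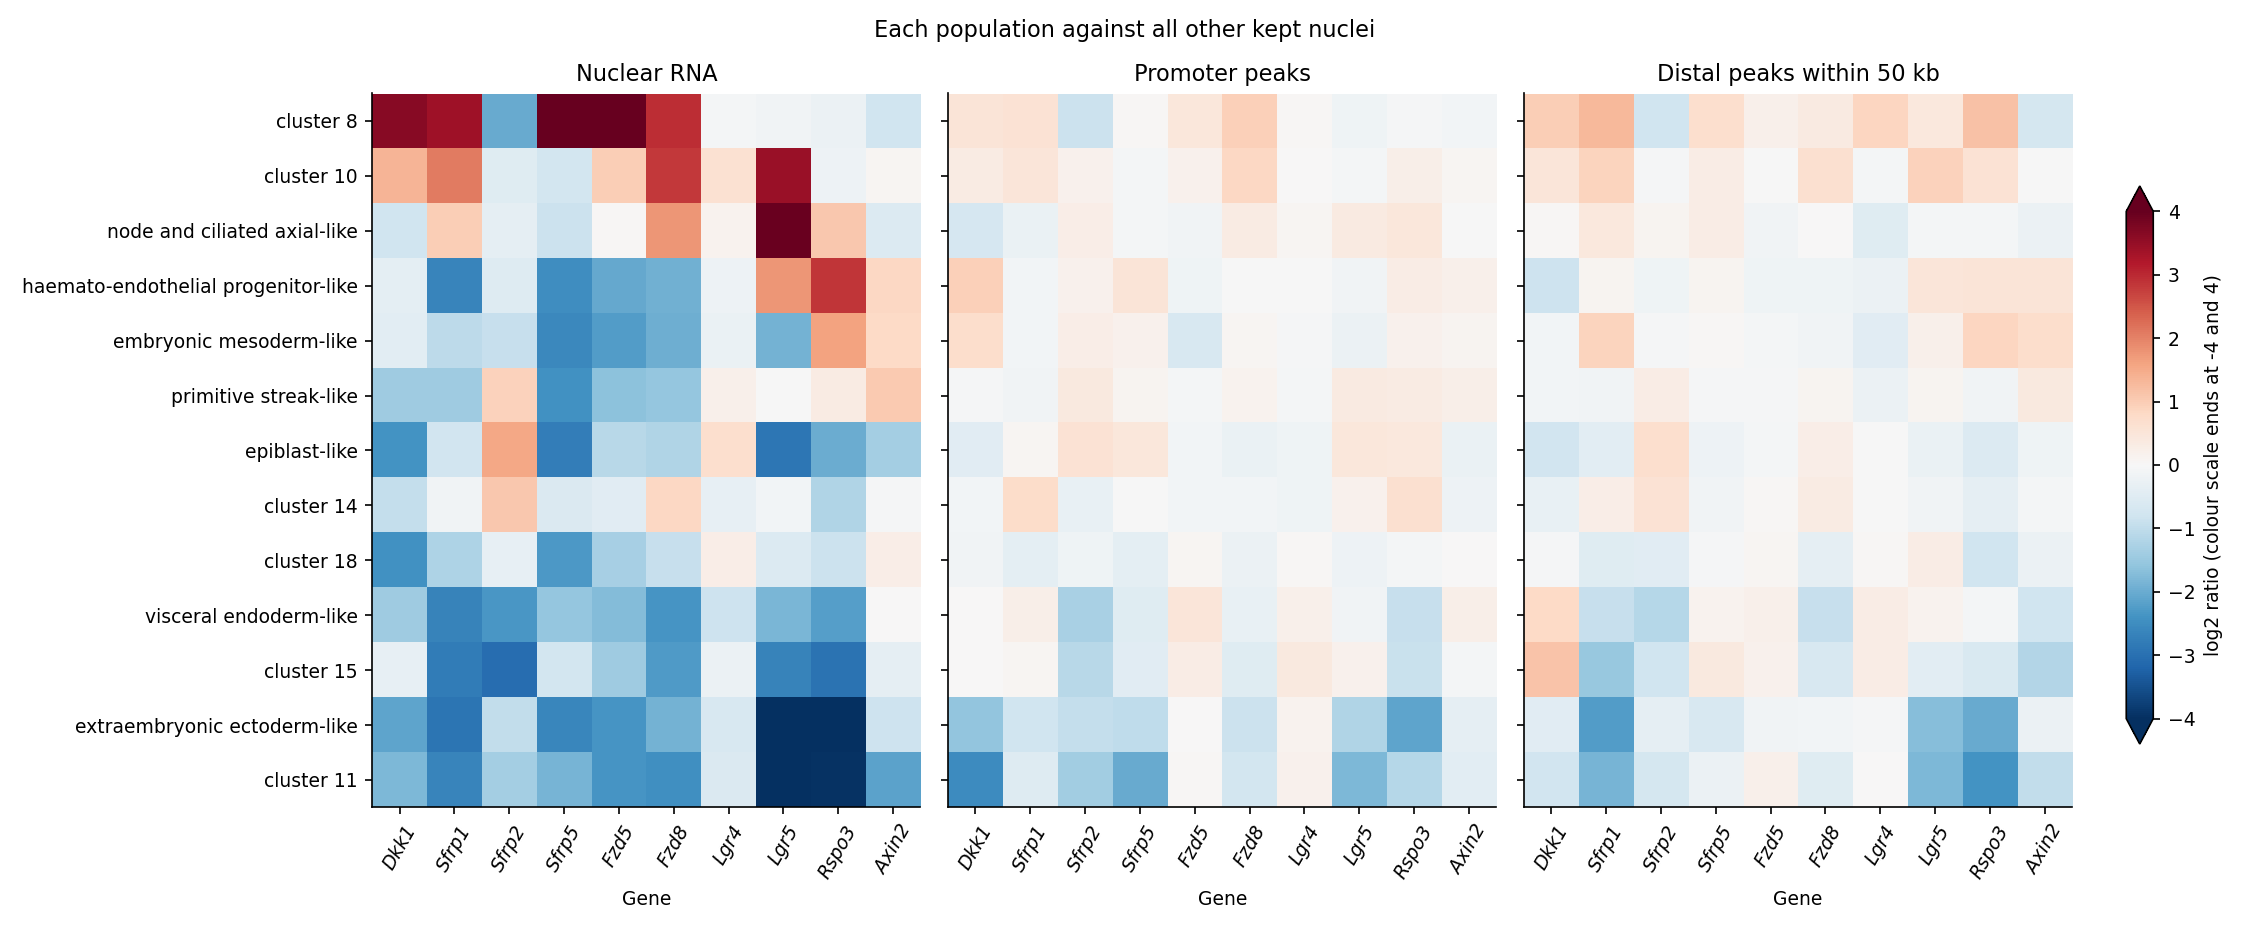
Log2 ratio of each of the 13 ranked populations to all other kept nuclei for RNA, summed promoter peaks and summed distal peaks of the 10 genes, on a common colour scale ending at -4 and 4. The RNA panel has strong colours in cluster 8 (Sfrp5 at 36.7-fold), while the promoter panel has no gene at 2-fold in its leading population and its strongest colours are low values, such as Dkk1 in cluster 11 (a ratio of 0.176), and the distal panel is darkest for low values in extraembryonic ectoderm-like nuclei and cluster 11.

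Distal peaks were those within 50 kb of a member's start and outside its promoter. Some lay at the start of another gene, such as an Sfrp2 peak 10 bp from the start of Gm26771. Distal peaks did not vary more than promoters in every gene. Between the ranked populations their range was wider than that of promoters for Sfrp1 (9.95-fold), Rspo3 (10.8-fold), Lgr5 (6.27-fold), Axin2 (3.33-fold) and Lgr4 (2.38-fold), and narrower for Dkk1, Sfrp2, Sfrp5, Fzd5 and Fzd8. In the population with the highest RNA, their summed counts were 2.46-fold above all other nuclei for Sfrp1 (2.30 to 2.62), 1.97 for Dkk1 (1.81 to 2.15), 1.60 for Sfrp2 (1.51 to 1.69), 1.59 for Sfrp5 (1.49 to 1.68) and 1.56 for Fzd8 (1.40 to 1.72). They were 1.42 for Rspo3, 1.30 for Axin2, 1.14 for Fzd5, 0.9504 for Lgr5 (0.671 to 1.31) and 0.9504 for Lgr4 (0.839 to 1.07). With peaks within 20000 bp only, the log2 ratio went from 1.30 to 0.37 for Sfrp1 and from 0.66 to 1.27 for Sfrp5, and that of Lgr5 ran from -0.59 to 0.80 over the alternatives. In cluster 8, 7 of 22 distal peaks of Sfrp1 with enough counts were 2-fold higher, where 12.7% of all 171487 peaks tested were. So were 5 of 24 of Sfrp5, 4 of 18 of Fzd5 and 3 of 10 of Dkk1. Here and below, the count limit was set on all kept nuclei, the compared population included, for members and all peaks alike. A peak could thus enter through the population where it was high: an Sfrp5 peak had 141 of its 288 counts in cluster 8. In cluster 10, the share of all peaks was 9.07%, and 3 of 9 distal peaks of Fzd8 and 1 of 12 of Lgr4 were 2-fold higher. The counts were 2 of 8 for Lgr5 in the node-like class (11.2% of all peaks), 2 of 6 for Rspo3 in haemato-endothelial progenitor-like nuclei (8.22%), 1 of 8 for Sfrp2 in epiblast-like nuclei (9.02%) and 4 of 22 for Axin2 in primitive streak-like nuclei (2.24%). Distal peaks were also 2-fold lower where the RNA was highest: in cluster 8, 6 for Sfrp1, 3 for Sfrp5, 2 for Fzd5 and 2 for Dkk1 (36.3% of all peaks), in cluster 10, 2 for Lgr4 and 0 for Fzd8 (18.5%), and 1 for Lgr5 (27.4%), 1 for Rspo3 (25%), 0 for Sfrp2 (21.9%) and 2 for Axin2 (17.4%) in their leading classes. Lgr5 distal peaks summed highest in cluster 10, at 1.90 (1.68 to 2.14), rather than in the node-like class.

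Single distal peaks were named as the one with the highest ratio in any population on at least 100 counts, so their ratios are maxima and support nothing on their own. For Sfrp5 this was chr19:42186515-42187375, 15307 bp to the 3′ side of the start and inside the body of Zfyve27, at 14.8-fold in cluster 8 (10.7 to 20.4, 141 counts). It was also the distal Sfrp5 peak that followed Sfrp5 RNA most closely over clusters (r = 0.78). For Sfrp1 it was chr8:23435306-23436184, 24243 bp into the gene, at 7.44-fold in cluster 8 (6.37 to 8.68). For Rspo3 it was chr10:29542411-29543354, 7016 bp upstream, at 6.10-fold in cluster 8 (4.47 to 8.22), where Rspo3 RNA was not raised. The distal Rspo3 peak that followed its RNA best (r = 0.73) was chr10:29569370-29570264, 33950 bp upstream, at 4.15-fold in embryonic mesoderm-like nuclei (3.41 to 5.04).

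For Dkk1, Axin2, Fzd5, Lgr4 and Lgr5 the peak named in this way lay where their RNA was not raised. These peaks too were picked as maxima, on counts of the very population in which they were high. They are therefore single cases, and whether distal peaks in general part from RNA was not tested. The Dkk1 peak at chr19:30559453-30560184, 10154 bp upstream and in no RefSeq gene, held 355 of its 445 counts in extraembryonic ectoderm-like nuclei, 43.2-fold above all others (31.6 to 59.9), while Dkk1 RNA there was 10.6 CPM (9.06 to 12.3). An Axin2 peak at chr11:108963559-108964425, nearest to the start of Gm11670, was 16.5-fold higher in the same class (12.4 to 22.1), where Axin2 RNA was 27.5 CPM. The Fzd5 peak at chr1:64787438-64788332, 50134 bp upstream by its centre and within 50 kb by its edge, was 10.4-fold higher in visceral endoderm-like nuclei (8.53 to 12.7), where Fzd5 RNA was 9.23 CPM. The Lgr4 peak at chr2:109936022-109936904, 18816 bp into the gene, was 10.1-fold higher in cluster 8 (8.00 to 12.7), where Lgr4 RNA was 97.3 CPM and not raised. The Lgr5 peak at chr10:115586220-115586957, 904 bp into the gene, was 2.19-fold higher in visceral endoderm-like nuclei (1.92 to 2.50), where Lgr5 RNA was 9.89 CPM. By contrast, the Sfrp2 peak at chr3:83786845-83787680 had 4.57-fold more counts in the epiblast-like class (3.68 to 5.70), where Sfrp2 RNA was highest, and the distal Axin2 peak that followed its RNA best (r = 0.72) was chr11:108906498-108907400, 13400 bp upstream, at 5.42-fold in haemato-endothelial progenitor-like nuclei (4.58 to 6.40).

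**Figure D4:**
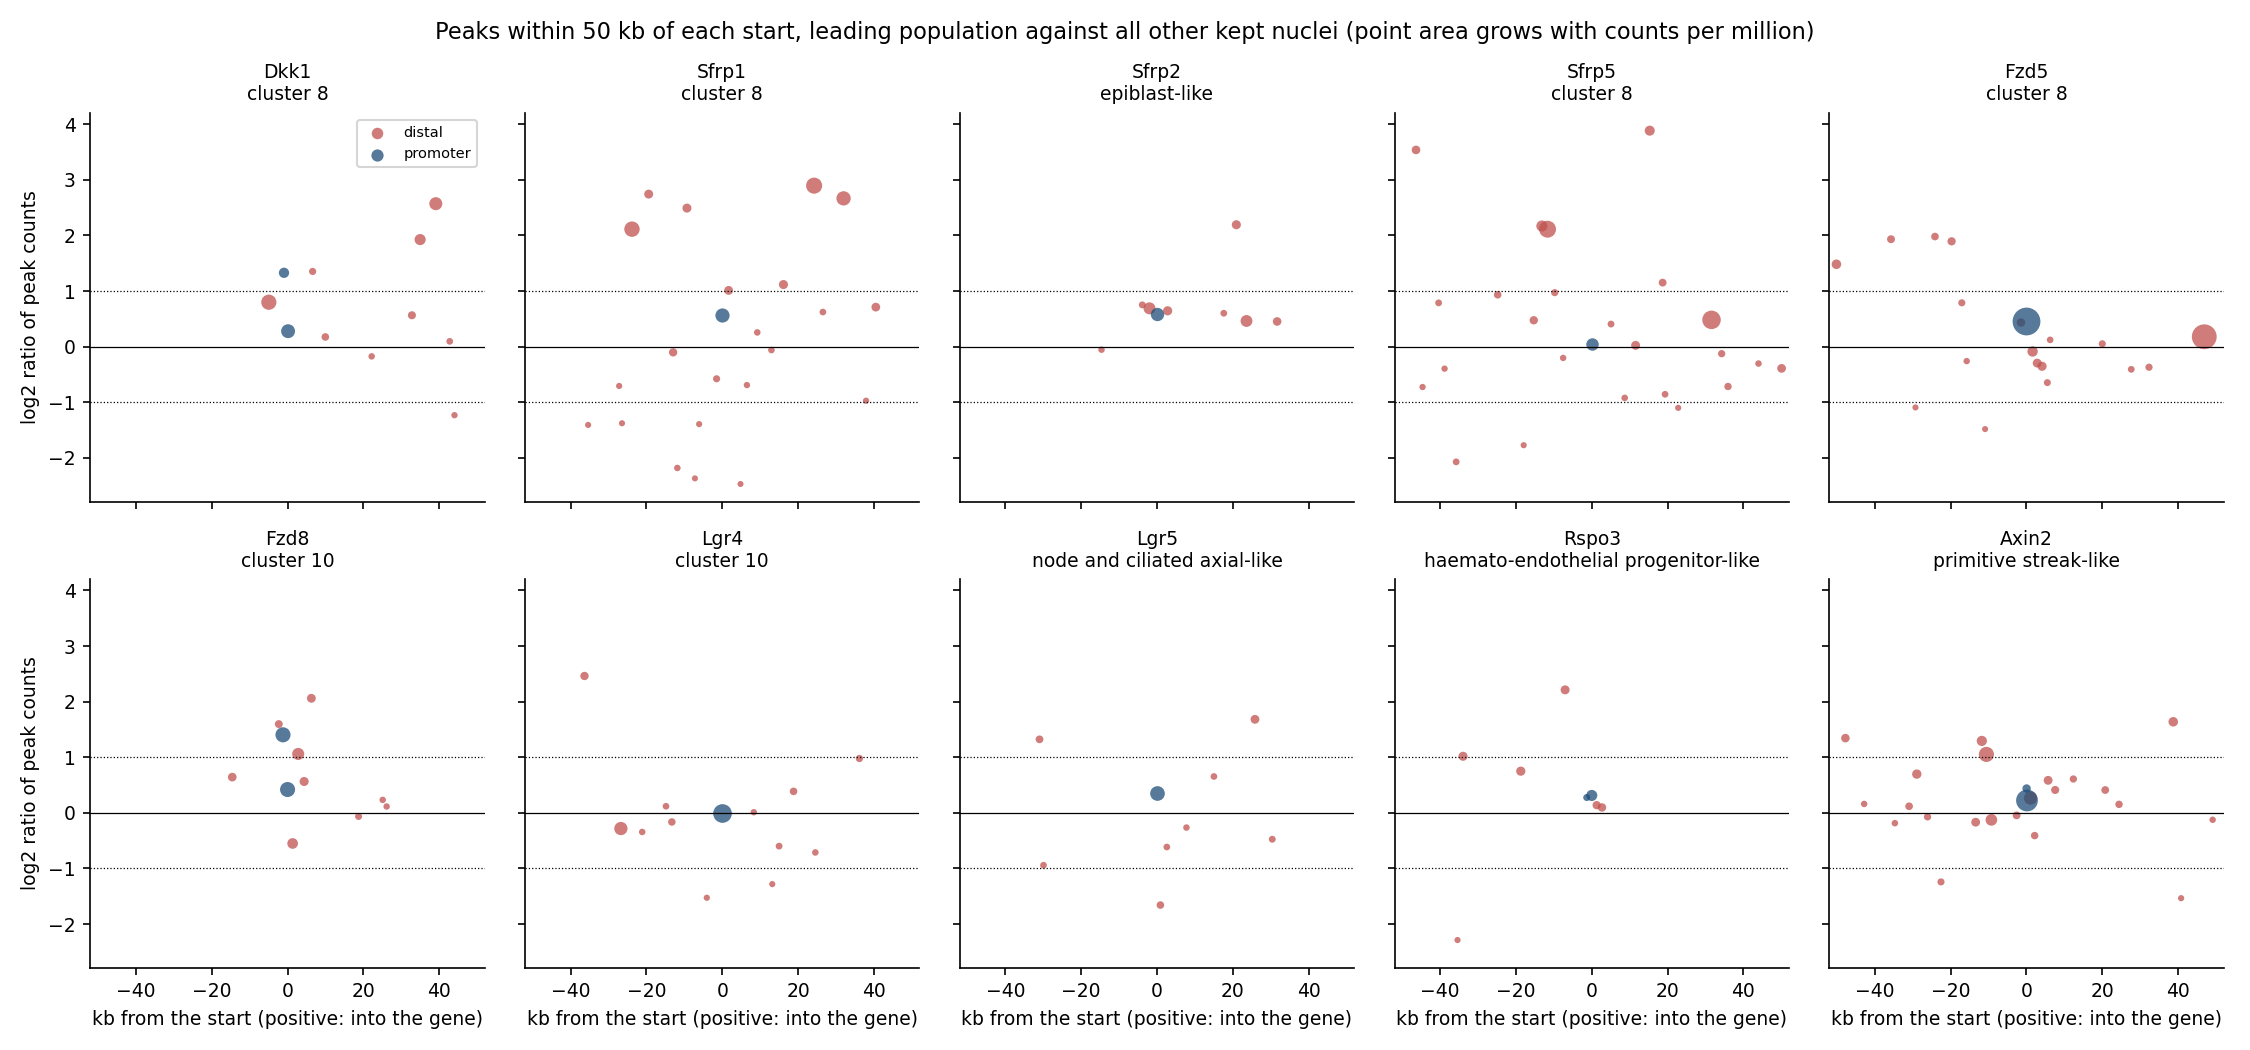
Log2 ratio of peak counts in the population with the highest RNA to all other kept nuclei, for each peak with at least 200 counts, by distance from the start in kb, with point area growing with counts and dotted lines at 2-fold. The most raised points are distal, such as the Sfrp5 peak at 14.8-fold in cluster 8, while promoter points lie closer to 0.

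Of the wider pathway, 64 genes were listed, 49 had at least 200 UMIs, and 33 of those were 2-fold higher in some ranked population, where 46.3% of all genes tested were. Of 12 other secreted or membrane inhibitors tested, 5 were higher and 2 lower in cluster 10 (3.03% and 10.5% of all genes tested), and 4 were higher and 4 lower in cluster 8 (6.56% and 18.2%). The higher ones were Frzb, Cer1, Shisa2, Trabd2b and Bambi in cluster 10, and Cer1, Shisa2, Trabd2b and Rnf43 in cluster 8. Cer1 is an antagonist of Nodal and BMP, so these counts are not of Wnt inhibitors alone. It was at 366.9 CPM in cluster 10, 17.9-fold above all other nuclei (17.0 to 19.0). Shisa2, which retains Frizzled in the endoplasmic reticulum, was 7.91-fold higher in cluster 8 (7.09 to 8.82), at 47.9 CPM. Apcdd1, a membrane-bound Wnt inhibitor, was 5.86-fold higher in haemato-endothelial progenitor-like nuclei (5.25 to 6.53). In epiblast-like nuclei 6 of the 12 were lower and 0 higher (11.3% and 6.55% of all genes).

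Among 15 other receptors and co-receptors tested, 10 were lower in visceral endoderm-like nuclei and 2 higher (22.2% and 9.61% of all genes), one of the higher being Fzd4 at 33.3 CPM (5.64-fold, 5.06 to 6.28). Cluster 11 had 12 lower and 0 higher (23.2% and 4.74% of all genes), and cluster 15 had 10 lower and 1 higher (22.3% and 9.39%). In primitive streak-like nuclei 4 were higher (Fzd10, Lrp4, Ror1 and Ror2) and 1 lower (3.15% and 9.48%), the most receptors higher in any ranked population. Rspo1, another R-spondin, had 8.17 CPM in the epiblast-like class, a ratio of 3.87 (3.23 to 4.65). Ror1, a co-receptor of non-canonical Wnt signalling, was 3.84-fold higher in cluster 10 (3.70 to 3.98), at 559.9 CPM. Of 22 intracellular parts and targets tested, 4 were higher and 0 lower in embryonic mesoderm-like nuclei (4.7% and 13.9% of all genes), 3 higher and 3 lower in haemato-endothelial progenitor-like nuclei (5.06% and 12.4%) and 1 higher in primitive streak-like nuclei (3.15%). In cluster 8, 2 were higher and 4 lower (6.56% and 18.2%), and in cluster 10, 2 were higher and 0 lower (3.03% and 10.5%). Tcf7l2 and Sp5 were the higher genes in both clusters. Sp5 was also higher in embryonic mesoderm-like nuclei, and lower in haemato-endothelial progenitor-like nuclei. Lef1, a TCF/LEF factor and Wnt target, was 4.50-fold higher in embryonic mesoderm-like nuclei (4.43 to 4.58), Nkd1, an inhibitor induced by Wnt, 4.09-fold in haemato-endothelial progenitor-like nuclei (3.68 to 4.53), and Sp8 4.09-fold in primitive streak-like nuclei (3.64 to 4.60). Axin2 beside Nkd1 in haemato-endothelial progenitor-like nuclei had a ratio of 1.76 (1.61 to 1.93), under the 2-fold line.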

How the data were processed

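Nuclear RNA and accessible chromatin were measured in the same nuclei of pooled E7.0 mouse embryos (10x Genomics multiome, 1 library per assay, 1 barcode suffix). The authors deposited raw counts in whole numbers, UMIs for genes and counts for peaks, written by cellranger-arc 2.0.0 per the file headers, on mm10 per the submitters' processing notes. Totals were 182201512 UMIs (RNA) and 273131304 peak counts (accessibility). Even numbers made up 86.4% of nonzero values in peaks, so accessibility intervals used fragments estimated as the count divided by 2 and rounded up.

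Nuclei needed 1000 UMIs, 500 genes, 1000 peak counts and no more than 20% mitochondrial RNA. Scrublet in scanpy 1.11.5 called 1154 barcodes doublets (7.52%), which were removed. RNA clusters came from 3000 variable genes without the members and listed Wnt genes (30 components, 15 neighbours, leidenalg 0.10.2, resolution 1), and accessibility clusters from TF-IDF without the 186 member peaks. Ratios set a population's CPM (summed counts per 1000000) against all other kept nuclei, with exact intervals, for genes and peaks with at least 200 counts. The ratio and its interval were tested on simulated sums drawn with counting error alone. That test does not cover the uneven spread of UMIs between nuclei.

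The members and lists were chosen with earlier results of these data known. The naming rule was set after clusters had been seen: a leading marker list needed a mean log2 ratio of 0.5 and 3 markers raised 1.5-fold on 50 UMIs, no list with more markers among the 10 leading genes, no rival above 0.6 of its score where none of its markers led, and a median depth no lower than the overall median divided by 3. That rival share was first 0.5, under which 61.1% of nuclei were named. The limits for ranking populations, the 1.5-fold line for summed accessibility and the choice of sequences shown were also set after seeing data. Named wider genes were the 3 with the highest ratio per list on at least 100 UMIs, likeness used genes with at least 500 UMIs (the closest is printed), and named distal peaks had the highest ratio on at least 100 counts or the highest coefficient with RNA, of which some are printed. Gene starts came from the files, and gene bodies and sequences from RefSeq GRCm38.p6. No Fzd8 sequence or position is reported here.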

Additional observations from a re-analysis of the deposited data

How the results depend on the processing

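The number of members 2-fold higher in their leading population was 9 and ranged from 8 to 9 over the alternatives, with Axin2 falling to a log2 ratio of 0.97 when doublet calls were kept. The leading population was picked as the one with the highest level in these same data. Of all 14374 genes tested, 46.3% were 2-fold higher in some ranked population. Removing clusters 6, 16 and 18, which were shallow or deep and were singled out after seeing the data, left 9. With classes from accessibility clusters, Axin2 reversed to a log2 ratio of -0.37: the best match to primitive streak-like nuclei was then an epiblast-like class (Jaccard index 0.248 between their nuclei). The count of members highest in the matched population was 10 in the main setting, where the choice of leading population fixes it. It moved to 6 with doublet calls kept and to 6 with at least 2000 UMIs and 2000 peak counts: Fzd8, Rspo3 and Axin2 moved in both, Lgr4 with doublet calls kept and Sfrp2 with the deeper nuclei. The other alternatives gave 7 or 8. The cause was not tested. With promoters at 1.5-fold, the count of 2 moved to 1 at resolution 0.5, to 4 at resolution 2, to 1 with a window of 2000 bp to each side, to 1 with estimated fragments and to 1 with the first naming rule, a rival share of 0.5 (chosen after seeing the data). The members with distal peaks at 1.5-fold numbered 5, and 4 to 7 elsewhere, and listed genes 2-fold higher somewhere numbered 33, and 31 to 34 except 48 with no filter on low counts. For summed promoter and distal peaks, the share of all genes at 1.5-fold was not measured. RNA log2 ratios ranged from 3.86 to 5.77 for Sfrp5, 2.66 to 4.84 for Dkk1, 3.14 to 6.35 for Lgr5, 2.14 to 4.22 for Rspo3, 2.49 to 3.52 for Fzd8 and 0.08 to 0.81 for Lgr4. Where the main interval held a ratio of 1, sign changes were not counted as reversals, a choice made after seeing them: log2 ratios ran from -0.59 to 0.80 for Lgr5 distal peaks, -0.07 to 0.53 for the Lgr5 promoter, -0.07 to 0.05 for the Sfrp5 promoter, -0.07 to 0.07 for the Lgr4 promoter and -0.27 to 0.02 for Lgr4 distal peaks. No paired analysis was possible because each group holds 1 library. Depth limits Sfrp2 most, and differences between embryos cannot be seen in 1 pool.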

Other observations

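Within cluster 8, 3 pairs of members were seen in the same nuclei, each thinned to 5000 UMIs, more often than the share in nuclei lacking the first of the pair. Of 324 nuclei with an Fzd5 UMI, 42.6% also had an Fzd8 UMI (37.1 to 48.2), against 9.11% of those without (6.53 to 12.3). Of 300 nuclei with a Dkk1 UMI, 45.0% had an Sfrp5 UMI (39.3 to 50.8), against 24.5% of those without (20.5 to 28.8), and 78.3% had an Sfrp1 UMI (73.2 to 82.9), against 59.2% (54.4 to 63.8). The intervals of the other 3 pairs examined in cluster 8 overlapped. Cluster 8 fell mainly into a pair of finer clusters (65.6% and 31.5% of its nuclei), and their part in these shares was not tested. In cluster 10 the first of these pairs had overlapping intervals: 32.7% of nuclei with an Fzd5 UMI had an Fzd8 UMI (24.2 to 42.2), against 36.9% of those without (32.4 to 41.5). There, Lgr5 was seen in 35.3% of nuclei with a Dkk1 UMI (27.7 to 43.5) and 44.6% of those without (39.7 to 49.6), overlapping intervals. In the node and ciliated axial-like class, 57 of 95 nuclei with an Lgr5 UMI also had an Rspo3 UMI (interval 49.4% to 69.9%), against 41.5% of those without (26.3 to 57.9), overlapping intervals. In haemato-endothelial progenitor-like nuclei Lgr5 was seen less with Dkk1 than without it, in 9.46% (3.89 to 18.5) against 22.1% (18.6 to 26.0). The first share rests on 7 of 74 nuclei, and the intervals nearly touch. This class also split into finer clusters that differed in Lgr5, and their part was not tested. The other pairs in these populations, 6 in each of 4, had overlapping intervals. Nuclei of 1 library are not replicates, and these are descriptions.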
